A study of Homo sapiens with 6 samples.

Results

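The genes IFITM1, IFITM2, IFITM3, IFITM10 and BST2 were followed in RNA-seq libraries of TPC1 cells, an established human papillary thyroid carcinoma line. They were taken by symbol, and all 5 were present among the 21173 genes of the deposited tables. The study compared TPC1 cells made to overexpress the CP2-family transcription factor TFCP2L1 with TPC1 cells carrying a vector, and each group had 3 libraries. The labels give the genotypes as TFCP2L1 OE and WT. How TFCP2L1 was delivered, from which promoter and in how many clones is not stated in the labels. Separate cultures are not mentioned either, so each p-value below reflects the scatter of these libraries alone, and that scatter may be technical. The 5 genes were chosen by their read counts in these same libraries, with the difference between the 2 groups already known, so their own differences are given below as a description, without a test.

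IFITM1, IFITM2 and IFITM3 encode small membrane proteins that interferons induce in many cell types and that hinder the fusion of enveloped viruses with cell membranes. IFITM1 sits mainly at the cell surface, and IFITM2 and IFITM3 mainly in endosomes and lysosomes. BST2, also called tetherin, is an interferon-induced membrane protein with a transmembrane anchor near its start and a lipid (GPI) anchor at its end, and it holds budding virus particles on the surface of the cell that made them. IFITM10 belongs to the same protein family, the dispanins, by sequence. Interferons act through JAK kinases and STAT factors on the interferon-stimulated response element, a sequence near the start of many induced genes.

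IFITM1 (GRCh38 chromosome 11, 313506 to 315272, plus strand), IFITM2 (307631 to 315272, plus strand) and IFITM3 (319669 to 327537, minus strand) lie side by side, IFITM10 lies elsewhere on chromosome 11 (1732410 to 1750591, minus strand) and BST2 is on chromosome 19 (17402939 to 17405648, minus strand), all protein-coding in GENCODE v29. RefSeq's promoter table, which covers 250 bases before and 50 bases after the annotated start, matched 3 of the 5 members, IFITM1, IFITM3 and BST2, and did not match IFITM2 and IFITM10. The windows are printed 5′ to 3′ along the gene (build GRCh38.p14), because all 3 share a motif. With no window for IFITM2 and IFITM10, a link between the motif and the size of the difference was not tested. Capitals mark each match to GAAA, any 2 bases and GAAA again, the core of the interferon-stimulated response element.
IFITM1, chr11:313790-314089, plus strand: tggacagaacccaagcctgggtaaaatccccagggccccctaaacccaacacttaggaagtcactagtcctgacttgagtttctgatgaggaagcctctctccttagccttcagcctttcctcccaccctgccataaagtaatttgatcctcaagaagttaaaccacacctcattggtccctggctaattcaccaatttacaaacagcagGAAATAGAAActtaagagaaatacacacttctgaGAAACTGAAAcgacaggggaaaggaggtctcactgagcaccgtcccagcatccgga
IFITM3, chr11:320811-321110, minus strand: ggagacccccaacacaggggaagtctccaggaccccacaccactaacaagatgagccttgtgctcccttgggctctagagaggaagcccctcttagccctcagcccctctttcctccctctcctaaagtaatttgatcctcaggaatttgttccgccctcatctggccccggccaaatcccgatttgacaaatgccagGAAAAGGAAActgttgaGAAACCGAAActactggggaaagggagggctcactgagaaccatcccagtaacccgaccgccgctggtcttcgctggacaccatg
BST2, chr19:17405581-17405880, minus strand: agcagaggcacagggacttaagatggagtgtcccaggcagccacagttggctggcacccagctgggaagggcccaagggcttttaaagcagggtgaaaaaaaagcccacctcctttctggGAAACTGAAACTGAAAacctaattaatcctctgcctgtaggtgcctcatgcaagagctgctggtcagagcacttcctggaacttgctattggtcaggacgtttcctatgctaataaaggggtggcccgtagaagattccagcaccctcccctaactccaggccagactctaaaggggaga
Each of the 3 windows held this core 2 times, against 3.57% of all 35116 promoters of the same length that held it at least once, with both strands searched. Positions are counted from the annotated start, with 1 for the first transcribed base and -1 for the base before it. In IFITM1 the matches ran from -40 to -31 and from -6 to 4, and in IFITM3 from -52 to -43 and from -35 to -26. In BST2 they ran from -130 to -121 and from -124 to -115, so that they overlap. The STAT dimer core TTCNNNGAA, its own reverse complement, was found in the IFITM1 window from -12 to -4 and in the BST2 window from -136 to -128 and from -58 to -50, and in 7.66% of all promoters. The first of these BST2 matches and the IFITM1 match overlap a response element core. A pair of CP2 half-sites, CCAG, any 6 bases and CCAG again, on either strand, was found in the IFITM3 window from 29 to 42 and in 4.04% of all promoters, and was not among the letters of the IFITM1 and BST2 windows. A match is a stretch of letters and not evidence of binding.

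**Figure D1:**
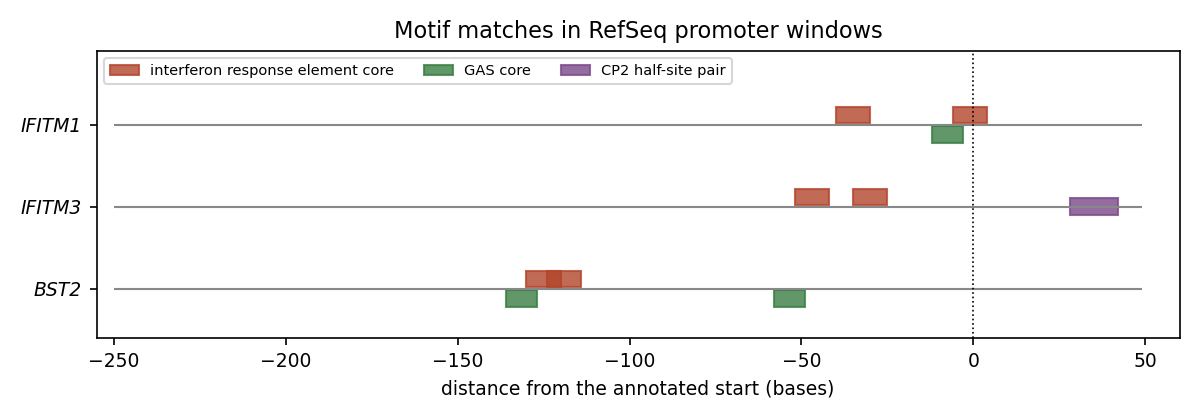
Motif matches in the RefSeq promoter windows of IFITM1, IFITM3 and BST2, by distance from the annotated start in bases (x axis, from 250 before to 50 after; the GAS core is the STAT dimer core). Each window holds the interferon response element core 2 times, close to the start in IFITM1 and IFITM3 and about -130 to -115 in BST2.

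The targeted gene was checked first. TFCP2L1 had 13578, 13885 and 12333 reads in the TFCP2L1 libraries and 0, 0 and 1 read in the vector libraries. Library totals were close, between 37928516 and 38987434 reads. Among thyroid follicular markers, PAX8, a lineage factor, averaged 478 ± 47.4 CPM in TFCP2L1 cells and 544 ± 24.4 CPM in vector cells (SD, n = 3 each), and FOXE1 averaged 14.0 ± 2.31 CPM in TFCP2L1 cells and 17.5 ± 2.34 CPM in vector cells. The thyroglobulin gene TG was near 1 CPM in both groups (1.03 in TFCP2L1 cells and 1.10 in vector cells), SLC5A5, which encodes the iodide transporter, was at 6 reads in the TFCP2L1 libraries (all in replicate 2) and 0 in the vector libraries, and NKX2-1 and TSHR were not analysed here. CPM are counts scaled to library size with TMM, edgeR's trimmed mean of log ratios.

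IFITM1 showed the largest difference of the members. It had 993, 876 and 1069 reads in the TFCP2L1 libraries and 26, 25 and 25 reads in the vector libraries. On the CPM scale it averaged 25.2 ± 2.78 in TFCP2L1 cells and 0.671 ± 0.0171 in vector cells (SD, n = 3 each), and the fitted log2 fold change was 5.23 ± 0.19 (SE). Every TFCP2L1 library was far above every vector library, and within each group the libraries lay close together. The libraries are bulk, so more cells with the transcript and more transcript per cell cannot be told apart.

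BST2 came next. Its reads were 369, 312 and 259 in the TFCP2L1 libraries and 16, 18 and 13 in the vector libraries. It averaged 8.06 ± 1.35 CPM in TFCP2L1 cells and 0.415 ± 0.0682 CPM in vector cells (SD, n = 3 each), a log2 fold change of 4.27 ± 0.27 (SE). The groups did not overlap, and the lowest TFCP2L1 library, replicate 3 with 6.76 CPM, was well above the highest vector library, replicate 2 with 0.478 CPM. Plasmacytoid dendritic cells and other leukocytes are known for high BST2, so their markers were looked at. PTPRC, the common leukocyte gene, had 3 reads in the TFCP2L1 libraries and 8 in the vector libraries, and SPIB had 14 in the TFCP2L1 libraries and 3 in the vector libraries. The 4 leukocyte markers with a row (of 7) summed to between 0.339 and 1.02 CPM in TFCP2L1 libraries and between 0.632 and 1.14 CPM in vector libraries. Of 6 plasmacytoid dendritic cell markers, 2 had a row, and their sum was 15.6 to 17.4 CPM in TFCP2L1 libraries and 12.8 to 15.6 CPM in vector libraries. Nearly all of it came from TCF4, which was higher in every TFCP2L1 library (16.3 ± 0.904 CPM in TFCP2L1 cells and 14.0 ± 1.39 CPM in vector cells, SD, n = 3 each; edgeR adjusted p = 0.243), and its part in the BST2 values was not tested. For 5 endothelial markers (4 with a row) the sums were 1.28 to 1.79 CPM in TFCP2L1 libraries and 0.850 to 1.32 CPM in vector libraries. Of these, TEK had 24, 10 and 15 reads in the TFCP2L1 libraries and 2, 2 and 6 in the vector libraries, without overlap. KDR went the other way, with 6, 1 and 0 reads in the TFCP2L1 libraries and 12, 9 and 3 in the vector libraries, with overlap. Neither TEK nor KDR passed the filter on low counts, so they were not tested. For 6 fibroblast markers (5 with a row) they were 4.02 to 5.20 CPM in TFCP2L1 libraries and 6.14 to 6.88 CPM in vector libraries. By edgeR's quasi-likelihood test 0 of the 8 tested genes of these 5 marker lists, the thyroid list included, were called in either direction (0 also by DESeq2 and by limma-voom), and 3 had an unadjusted p under 0.05, all lower in TFCP2L1 cells. These 3 were PAX8, FOXE1 and COL1A1. Without TFCP2L1 replicate 3, PAX8 (edgeR adjusted p = 0.0227) and FOXE1 (0.0228) were called lower.

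IFITM3, the most abundant member, was higher in every TFCP2L1 library by a smaller factor. It had 18904, 14274 and 24170 reads in the TFCP2L1 libraries and 8068, 10654 and 7354 in the vector libraries. The means were 493 ± 134 CPM in TFCP2L1 cells and 230 ± 46.6 CPM in vector cells (SD, n = 3 each), with a log2 fold change of 1.10 ± 0.25 (SE). TFCP2L1 replicate 2 was the lowest of its group at 364 CPM, against 283 CPM in vector replicate 2, the highest of its group. IFITM2 had 2323, 1680 and 2785 reads in the TFCP2L1 libraries and 1438, 1722 and 1234 in the vector libraries. Its means were 58.3 ± 14.9 CPM in TFCP2L1 cells and 38.8 ± 6.62 CPM in vector cells (SD, n = 3 each), a log2 fold change of 0.59 ± 0.21 (SE). Here the groups overlapped, since TFCP2L1 replicate 2 (42.9 CPM) lay below vector replicate 2 (45.7 CPM).

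IFITM10 was the one member with a lower mean in TFCP2L1 cells, and it was scarce. It had 40, 9 and 22 reads in the TFCP2L1 libraries and 45, 49 and 30 in the vector libraries. Its means were 0.610 ± 0.399 CPM in TFCP2L1 cells and 1.10 ± 0.269 CPM in vector cells (SD, n = 3 each), a log2 fold change of -0.84 ± 0.44 (SE). The groups overlapped, with TFCP2L1 replicate 1 above vector replicate 3, and the value rested on TFCP2L1 replicate 2: it was -0.45 without that library and -1.44 without TFCP2L1 replicate 1. In all, 3 of the 5 members were higher in every TFCP2L1 library than in any vector library, which 14.4% of the 14431 tested genes were, and 0 were lower in every one, which 15.6% of tested genes were. All 5 members passed the filter on low counts. By size of log2 fold change among the 14431 tested genes, IFITM1 ranked 4 from the top, BST2 6, IFITM3 150 and IFITM2 574, while IFITM10 ranked 13856.

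**Figure D2:**
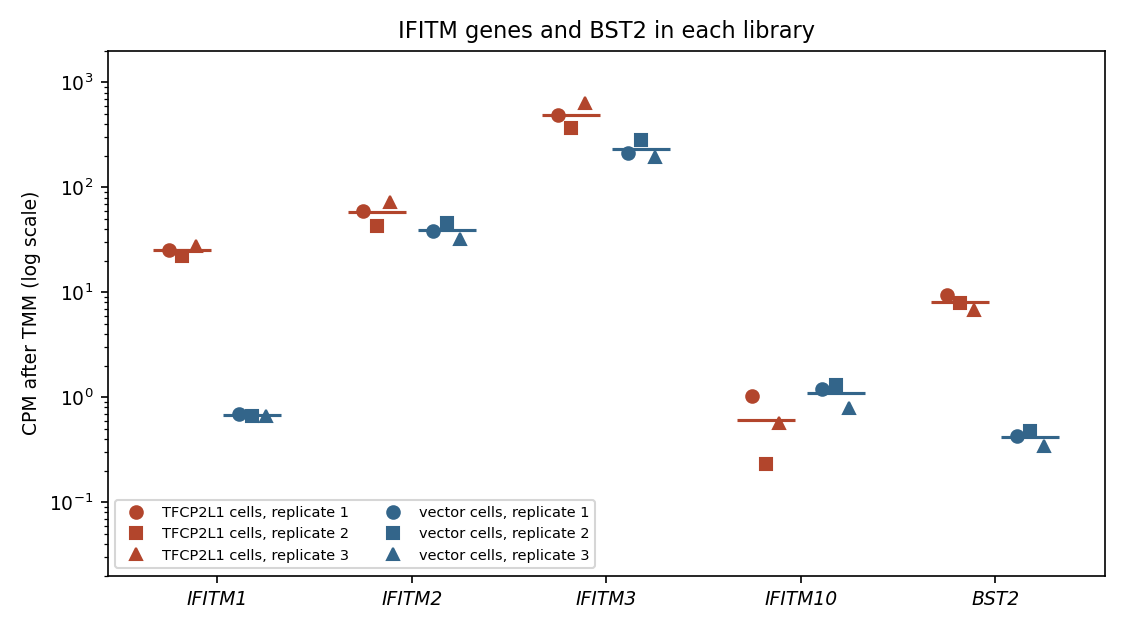
CPM after TMM scaling on a log axis for each member, with 1 point per library, TFCP2L1 cells in red, vector cells in blue and group means as lines. IFITM1 and BST2 libraries of the groups lie far apart, IFITM3 libraries lie apart by less (364 to 631 CPM in TFCP2L1 cells against 194 to 283 CPM in vector cells), and IFITM2 and IFITM10 libraries overlap.

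Levels of different genes were compared per gene length, on the deposited FPKM scale. In TFCP2L1 cells the order was IFITM3 (814 ± 218 FPKM), IFITM2 (58.5 ± 14.9), IFITM1 (38.1 ± 4.16), BST2 (8.13 ± 1.43) and IFITM10 (0.166 ± 0.110; SD, n = 3 each). In vector cells it was IFITM3 (373 ± 73.6 FPKM), IFITM2 (38.2 ± 6.33), IFITM1 (0.995 ± 0.0271), BST2 (0.411 ± 0.0657) and IFITM10 (0.292 ± 0.0708; SD, n = 3 each). The order was therefore the same in both groups, but IFITM1 stood close to IFITM2 in TFCP2L1 cells (33.6 to 41.9 FPKM for IFITM1, 42.8 to 72.4 FPKM for IFITM2) and close to BST2 in vector cells. In vector cells BST2 and IFITM10 did not differ beyond their spread, with libraries between 0.340 and 0.470 FPKM for BST2 and between 0.212 and 0.345 FPKM for IFITM10. Other neighbours in the order did not overlap in either group. By mean FPKM, IFITM3 ranked 49 of 19814 genes with a read in TFCP2L1 cells and 119 of 19999 in vector cells. IFITM1 had a higher level than 92.3% of the genes with a read in TFCP2L1 cells and than 45.0% in vector cells, and for BST2 these shares were 70.9% in TFCP2L1 cells and 38.01% in vector cells.

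**Figure D3:**
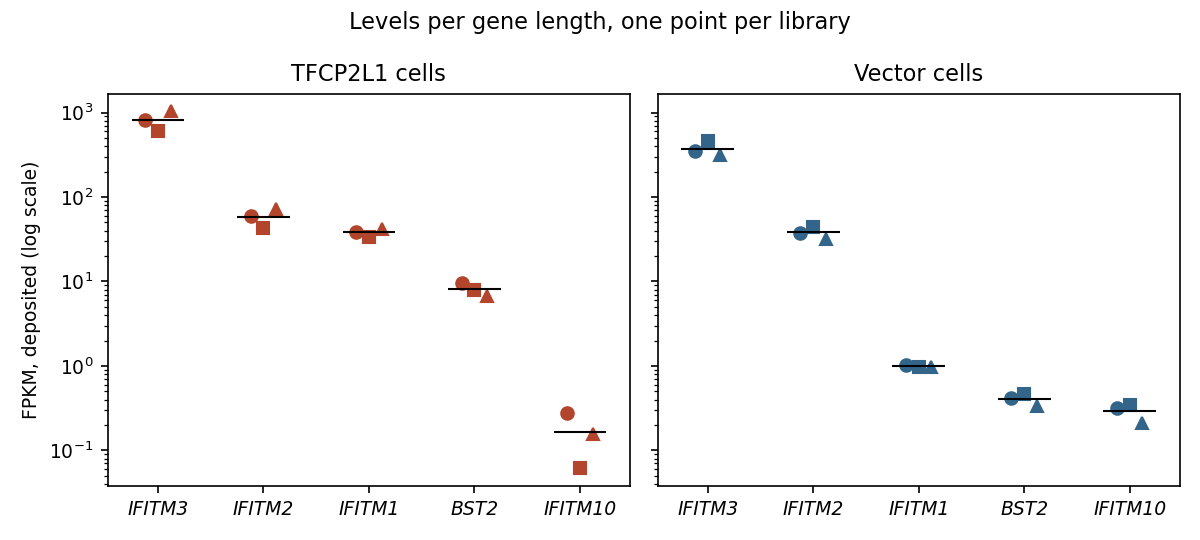
Deposited FPKM (log axis) of the 5 members in TFCP2L1 cells (left) and vector cells (right), ordered by mean level, with 1 point per library and the mean as a line. IFITM1 lies just under IFITM2 in TFCP2L1 cells and near 1 FPKM, beside BST2, in vector cells.

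The 3 clustered IFITM genes resemble each other in sequence, so the split of reads between them depends on how shared reads were counted, which the labels do not state. The longest stretch that the main GENCODE transcripts of IFITM1 and IFITM3 have in common is 141 bases of coding sequence, bases 472 to 612 of the 855-base IFITM1 transcript and 454 to 594 of the 808-base IFITM3 transcript. It is shown because a read inside it fits either gene, and the 99 bases in capitals are also found without a difference in IFITM2.
Stretch common to IFITM1 and IFITM3: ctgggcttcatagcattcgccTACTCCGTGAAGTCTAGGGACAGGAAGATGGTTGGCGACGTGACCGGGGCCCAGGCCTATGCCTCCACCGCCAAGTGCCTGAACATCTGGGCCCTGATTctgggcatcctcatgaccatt
Of all stretches of 100 bases in these transcripts, 37.7% in IFITM1, 0% in IFITM2 and 5.92% in IFITM3 occurred in a transcript of another gene, against 26.8% in IFITM10 and 0% in BST2. The 0% in IFITM2 depends on this length, since its longest runs in common with IFITM1 and IFITM3 are 99 bases. For stretches of 50 bases the shares were 42.3% in IFITM1, 15.8% in IFITM2, 20.3% in IFITM3, 27.8% in IFITM10 and 0% in BST2. The IFITM1 share came mostly from a GENCODE transcript of IFITM2 that runs on into IFITM1, with 351 exon bases in common, and that of IFITM10 from AC068580.4, a gene that overlaps it on the same strand. The gene lengths behind the deposited FPKM were 668 bases for IFITM1, 1006 for IFITM2 and 611 for IFITM3, against 1080, 1543 and 1348 exon bases in GENCODE, so the authors' gene models were shorter than these. An antisense transcript, AC136475.5, covers 21.3% of the exon bases of IFITM3 in GENCODE.

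How the reads of the cluster were divided differed between the groups. Of the reads of IFITM1, IFITM2 and IFITM3 together, IFITM1 took 4.47%, 5.20% and 3.81% in the TFCP2L1 libraries and 0.273%, 0.202% and 0.290% in the vector libraries. The widest 95% Wilson intervals were 4.88% to 5.55% in TFCP2L1 replicate 2 and 0.197% to 0.428% in vector replicate 3, for counting error only. IFITM2 took 10.1% ± 0.286 in TFCP2L1 cells and 14.4% ± 0.607 in vector cells, and IFITM3 85.4% ± 0.764 in TFCP2L1 cells and 85.3% ± 0.639 in vector cells (SD, n = 3 each). For each IFITM1 read there were 19.3 ± 3.17 IFITM3 reads in TFCP2L1 cells and 344 ± 72.0 in vector cells, so in vector cells the reads assigned to IFITM1, whatever their origin, were few beside those of IFITM3.

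IFITM2 and IFITM3 had the same order of libraries within each group, and their ratio spread less than either gene. The ratio of IFITM3 to IFITM2 reads was 8.14, 8.496 and 8.68 in the TFCP2L1 libraries and 5.61, 6.19 and 5.96 in the vector libraries. The groups did not overlap in this ratio, although they did in IFITM2 itself. Between the highest and lowest library of a group, IFITM3 differed 1.73-fold in TFCP2L1 cells and 1.46-fold in vector cells, and IFITM2 1.70-fold in TFCP2L1 cells and 1.41-fold in vector cells. IFITM1 differed by less, 1.25-fold in TFCP2L1 cells and 1.05-fold in vector cells. The vector figure rests on 25 or 26 reads a library, where counting error is larger than this spread. It therefore does not show that IFITM1 varied less than IFITM2 and IFITM3 in vector cells. TFCP2L1 replicate 3 and vector replicate 2 had the most IFITM2 and IFITM3 of their groups. They also had the largest share of reads from mitochondrially encoded genes. In TFCP2L1 cells this share was 7.59% in replicate 3, 5.19% in replicate 1 and 5.80% in replicate 2. Replicate 2 was the lowest of that group in IFITM2 and IFITM3, yet above replicate 1 in this share. In vector cells the share was 6.72% in replicate 2, 5.14% in replicate 1 and 5.13% in replicate 3. The part of the mitochondrial share in the IFITM values was not tested. IFITM1 was also highest in TFCP2L1 replicate 3 (27.9 CPM) but not in vector replicate 2. BST2 was highest in vector replicate 2 (0.478 CPM) and lowest of the TFCP2L1 group in replicate 3 (6.76 CPM).

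**Figure D4:**
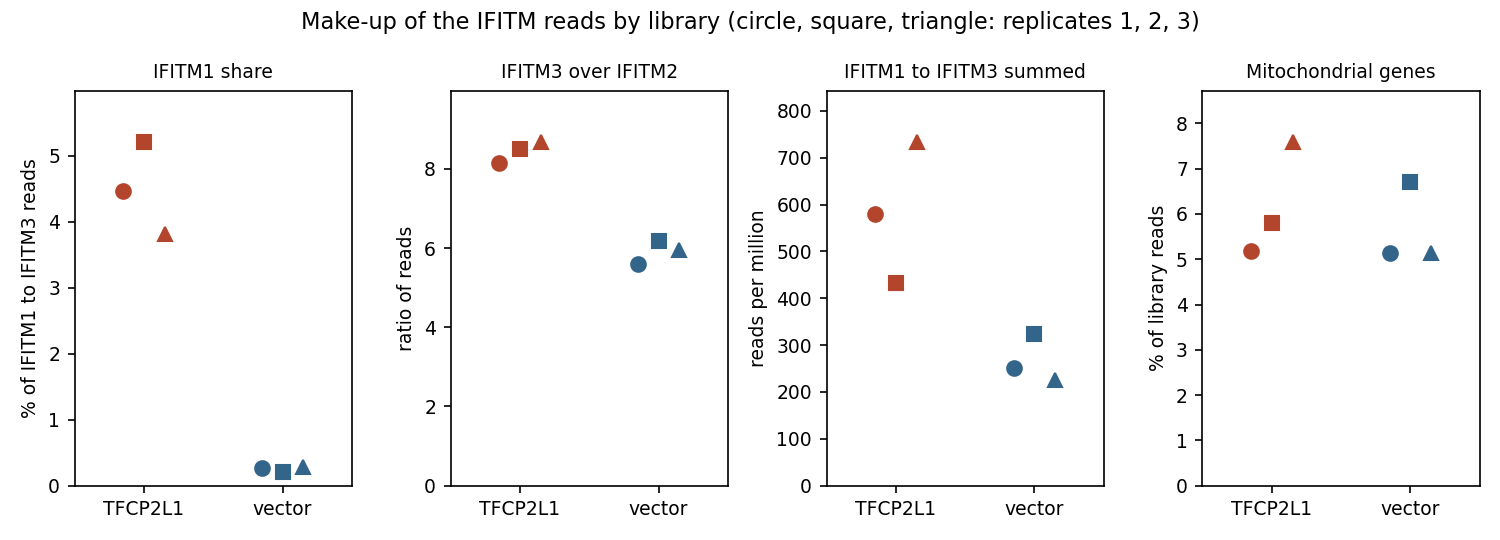
IFITM1 as a percentage of IFITM1 to IFITM3 reads, the ratio of IFITM3 to IFITM2 reads, the summed reads of the 3 genes scaled to library total and the percentage of reads from mitochondrial genes, with 1 point per library, TFCP2L1 left and vector right. The first 3 measures do not overlap between groups, while the mitochondrial share does, and the libraries highest in IFITM reads (TFCP2L1 replicate 3, vector replicate 2) are highest in mitochondrial share.

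The genes whose profiles over the 6 libraries were most like each member were found by the root-mean-square difference of log2 CPM, each profile taken relative to its vector mean, among 12539 genes. MX2, a GTPase that blocks viruses, was nearest to IFITM1 (difference 0.54), then IFI44L (1.35) and TRIM22 (1.70), all known interferon-induced genes. The same 3 genes were nearest to BST2, in the order IFI44L (0.65), MX2 (0.85) and TRIM22 (0.99). For IFITM3 they were SOX7, PCDH9 and FRMD5 (0.11 to 0.14), and for IFITM2 SLC48A1, UBE2S and C1QTNF6 (0.08 to 0.11), none of which stands in the lists of interferon genes used here. For IFITM10, whose low counts vary, the nearest were CAPS, ZNF561-AS1 and MYPN (0.32 to 0.35). These are likenesses over 6 libraries of 2 groups and carry no test. For IFITM1 and BST2 the distance mostly follows the size of the group difference, which was known when the members were chosen. The log2 fold changes of MX2, IFI44L and TRIM22 were 5.19, 3.24 and 2.75. Shared regulation was not tested.

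Interferon-stimulated genes other than the members mostly rose. By edgeR's quasi-likelihood test at an adjusted p under 0.05, which called 4.68% of all 14431 tested genes higher and 7.04% lower, 32 of 42 listed genes rose, 2 fell and 8 were not called. The median log2 fold change of the list was 0.56, against 0.0025 over all tested genes. MX2 averaged 7.55 ± 0.430 CPM in TFCP2L1 cells and 0.203 ± 0.171 CPM in vector cells (SD, n = 3 each; log2 fold change 5.19 ± 0.32, edgeR adjusted p = 2.57e-08). IFI44L averaged 63.2 ± 3.53 CPM in TFCP2L1 cells and 6.71 ± 0.148 CPM in vector cells (3.24 ± 0.10, adjusted p = 1.18e-11) and TRIM22, an antiviral ubiquitin ligase, 16.7 ± 1.53 CPM in TFCP2L1 cells and 2.47 ± 0.238 CPM in vector cells (2.75 ± 0.15, adjusted p = 1.37e-08). XAF1, a pro-apoptotic interferon-induced gene, had 218 reads in the TFCP2L1 libraries and 0 in the vector libraries. It was at least 71.9-fold higher, taking 3 reads over the vector group as the floor. The 2 that fell, named after their values were seen, were IFI44 (-0.46, adjusted p = 0.00206) and DDX60 (-0.58, adjusted p = 0.000448). Of the 34 promoters of this list in RefSeq's table, 20 held the response element core (58.8%).

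Other factors that restrict virus entry or release rose in part. Of 13 tested genes 6 rose and 1 fell, against 4.68% called higher and 7.04% called lower over all tested genes. PLSCR1, a phospholipid scramblase, averaged 122 ± 24.3 CPM in TFCP2L1 cells and 51.4 ± 3.17 CPM in vector cells (log2 fold change 1.24 ± 0.12, edgeR adjusted p = 1.12e-05), and RSAD2, known as viperin, 35.9 ± 4.45 CPM in TFCP2L1 cells and 18.3 ± 2.13 CPM in vector cells (0.97 ± 0.12, adjusted p = 3.75e-05). TRIM5, which acts on retroviral capsids, averaged 63.3 ± 2.999 CPM in TFCP2L1 cells and 47.8 ± 3.61 CPM in vector cells (0.40 ± 0.08, adjusted p = 0.00501). GBP2, a guanylate-binding protein, was the 1 that fell, at 18.6 ± 2.50 CPM in TFCP2L1 cells and 25.04 ± 0.831 CPM in vector cells (-0.43 ± 0.11, adjusted p = 0.0191), a call lost without TFCP2L1 replicate 1 or 3 or vector replicate 1 or 3 and by limma on FPKM with a pseudocount of 1 or 0.1. The count of genes that rose was 3 without vector replicate 3. RSAD2, PLSCR1 and LGALS3BP, all among the genes of this list that rose, also stand in the list of interferon-stimulated genes.

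Genes that process or carry IFITM proteins were mostly not called. Of 15 tested genes, among them the palmitoyltransferase gene ZDHHC20, the ubiquitin ligase gene NEDD4 and the AP2 adaptor genes, 0 rose and 1 fell, with 2 higher and 1 lower at an unadjusted p under 0.05, and 0 and 1 by DESeq2 and by limma-voom. FYN, a kinase that phosphorylates IFITM3, was the 1 that fell, at 10.3 ± 0.966 CPM in TFCP2L1 cells and 14.1 ± 0.927 CPM in vector cells (log2 fold change -0.46 ± 0.12, edgeR adjusted p = 0.0243), a call lost without TFCP2L1 replicate 1 or vector replicate 2 or 3. AP2S1 was at 164 ± 22.4 CPM in TFCP2L1 cells and 139 ± 9.43 CPM in vector cells (0.24 ± 0.09, adjusted p = 0.109). Without TFCP2L1 replicate 2 AP2S1 was called higher (edgeR adjusted p = 0.0375). Of 14 tested partners of BST2 and subunits of the GPI transamidase, which attaches the lipid anchor, 0 were called by edgeR, DESeq2 or limma-voom, and 0 had an unadjusted p under 0.05. The transamidase subunit genes PIGU (0.23 ± 0.12, edgeR adjusted p = 0.229) and PIGK (-0.21 ± 0.12, adjusted p = 0.290) had the smallest p. Of the other dispanins, 5 of 8 were tested, and 0 were called by edgeR, DESeq2 or limma-voom, with 0 at an unadjusted p under 0.05. They were PRRT1 (log2 fold change 0.36 ± 0.48), PRRT2 (-0.27 ± 0.56), TMEM233 (-0.06 ± 0.15), SYNDIG1L (-0.19 ± 0.52) and TMEM91 (-0.20 ± 0.59), of which TMEM233 had the highest level, at 7.29 ± 0.729 CPM in TFCP2L1 cells and 7.58 ± 0.969 CPM in vector cells.

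The interferon ligand genes had few reads in both groups. IFNL1, a type III interferon, had 18, 36 and 10 reads in the TFCP2L1 libraries and 0, 1 and 6 in the vector libraries (edgeR adjusted p = 0.0276). It was not called when vector replicate 1 or 2 was left out, nor by limma on FPKM with a pseudocount of 1. Without TFCP2L1 replicate 1 or 2 the gene did not pass the filter on low counts. Summed over libraries, IFNB1 had 13 reads in TFCP2L1 cells and 5 in vector cells, IFNL2 had 4 in TFCP2L1 cells and 0 in vector cells, and IFNA5 had 1 in TFCP2L1 cells and 0 in vector cells. IFNE had 156 reads in TFCP2L1 cells and 143 in vector cells (adjusted p = 0.906). The other 16 listed ligands had no row. Among 20 receptors and signalling genes, 5 rose and 3 fell, against 4.68% called higher and 7.04% called lower over all tested genes. IRF7, which amplifies interferon production, averaged 24.1 ± 3.29 CPM in TFCP2L1 cells and 5.09 ± 0.515 CPM in vector cells (log2 fold change 2.24 ± 0.14, edgeR adjusted p = 3.06e-08), and the feedback inhibitor gene USP18 27.1 ± 0.263 CPM in TFCP2L1 cells and 11.8 ± 1.87 CPM in vector cells (1.20 ± 0.12, adjusted p = 4.24e-06). Both also stand in the list of interferon-stimulated genes. SOCS1 (0.64 ± 0.17, adjusted p = 0.0227) lost its call without TFCP2L1 replicate 3 or vector replicate 1 or 3. The 3 that fell, named after their values were seen, were the receptor genes IFNAR2 (-0.26) and IFNLR1 (-0.56) and the kinase gene JAK1 (-0.34), and 0 of these calls were left without vector replicate 1, where 4 genes of the list rose.

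**Figure D5:**
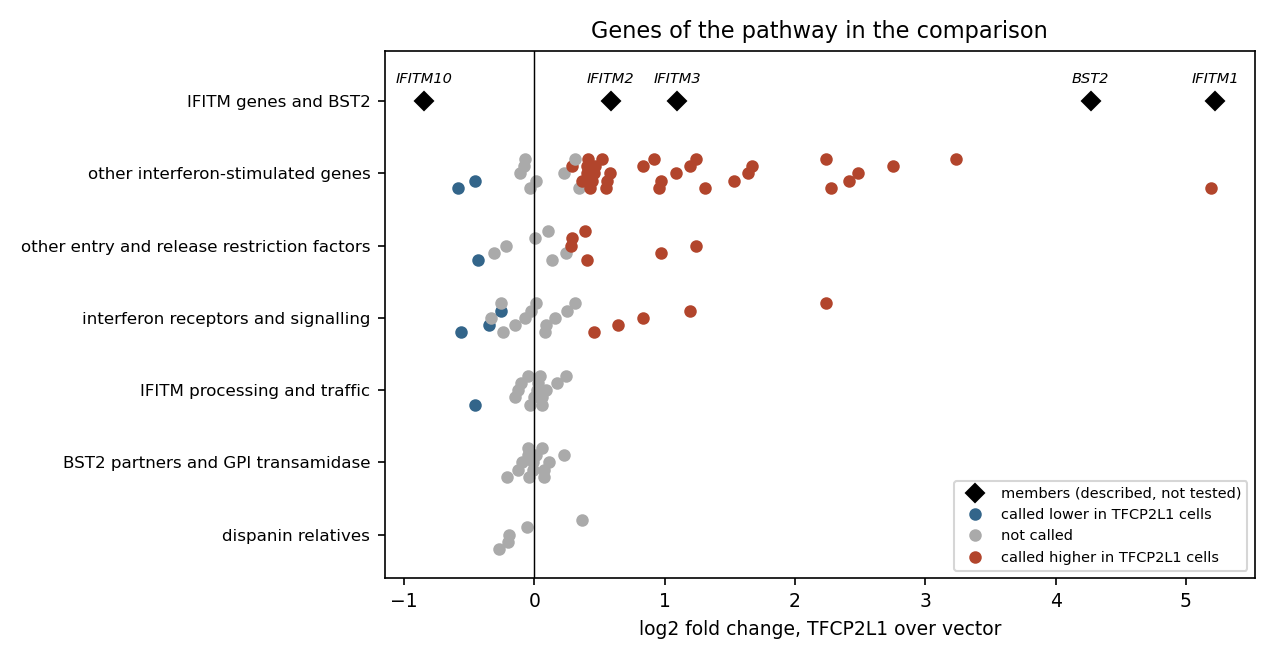
Log2 fold change, TFCP2L1 over vector (x axis), for the members (black diamonds, not tested) and for tested genes of 6 lists (red, called higher; blue, called lower; grey, not called, by edgeR at an adjusted p under 0.05). XAF1, with 0 vector reads, is left out, and IFITM1 and BST2 lie with MX2 far to the right of most listed genes.

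Genes beside the members on the chromosome were looked at for the same comparison. Of the 5 nearest protein-coding genes on each side in RefSeq's order, 7 of 10 around the IFITM cluster, 2 of 10 around IFITM10 and 6 of 10 around BST2 were tested. By edgeR 0 were called at any of the 3 loci, and 0 by DESeq2 or limma-voom, while 3, 1 and 1 were lower and 0 higher at an unadjusted p under 0.05. Around the cluster the smallest p belonged to PGGHG, at 9.93 ± 1.05 CPM in TFCP2L1 cells and 12.9 ± 0.763 CPM in vector cells (log2 fold change -0.38 ± 0.13, adjusted p = 0.0657), and ANO9 (-0.76 ± 0.28, adjusted p = 0.0894). Around IFITM10 they were LSP1 (-1.33 ± 0.43, adjusted p = 0.0559), which limma on FPKM called lower, and the protease gene CTSD (0.03 ± 0.08, adjusted p = 0.858). Around BST2 they were PGLS (-0.20 ± 0.09, adjusted p = 0.174) and DDA1 (0.17 ± 0.11, adjusted p = 0.345).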

How the data were processed

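Per the submitters' processing notes, reads went through fastp, HISAT2 and HTSeq (no versions) on build GRCh38.p13. Strand setting and annotation are not given in the sources used here. The authors deposited raw read counts per gene for 21173 genes and FPKM values for the same genes. For all 21173 genes, the gene length implied by count, FPKM and library total was the same in the 6 libraries to within 0.001%. The authors' deposited FPKM are these counts per length and library total, and no independent measurement. Library totals were 37928516 to 38987434 reads.

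Counts of all 6 libraries were fitted with edgeR 4.0.16 (R 4.3.3): filterByExpr (14431 genes kept), TMM, two-sided quasi-likelihood F-test (robust), Benjamini-Hochberg over all tested genes, called under 0.05. The biological coefficient of variation was 10.8%. Standard errors are the log2 fold change over the square root of F. The fit was tested on simulated data. Alternatives used DESeq2 1.42.0 and limma 3.58.1, other scalings and filters, FPKM with pseudocounts of 1 and 0.1, a replicate block and leaving out each library.

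Members and the 12 gene lists were chosen with earlier results of these data known. Named genes were the members, TFCP2L1, up to 4 called genes of each list by size of change (otherwise the 2 with the smallest p), all tested dispanins, ligands with a read, neighbours called or with the 2 smallest p, and the 3 nearest profiles (mean of at least 1 CPM). Some genes the rule names are not reported here. Positions come from GENCODE v29, promoters and neighbours from RefSeq (GRCh38.p14).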

Additional observations from a re-analysis of the deposited data

How the results depend on the processing

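Of 73 recomputed member differences, 68 moved by less than the spread between replicates and 0 changed sign. On log2(FPKM + 1) IFITM1 was 4.29 and BST2 2.68, and on log2(FPKM + 0.1) BST2 was 4.004. IFITM10 was -0.15 with a pseudocount of 1 and -0.63 with 0.1, against -0.84. Pseudocounts of this size are large beside such low levels. With the reads of IFITM1, IFITM2 and IFITM3 summed into 1 feature, the difference was 1.10. Alone it was 5.23 for IFITM1, 0.59 for IFITM2 and 1.10 for IFITM3. IFITM3 held 85.4% of the summed reads in TFCP2L1 cells and 85.3% in vector cells, so the sum mostly restates IFITM3. Without each library in turn IFITM1 ran from 5.15 to 5.31, BST2 from 4.14 to 4.38, IFITM3 from 0.88 to 1.28, IFITM2 from 0.40 to 0.77 and IFITM10 from -1.44 to -0.45. Replicate numbers did not pair the libraries: deviations from the group mean correlated at 0.0721, -0.161 and -0.124 between same-numbered libraries. With a replicate block 331 genes were called higher and 665 lower, against 676 and 1016 without it, and FYN, GBP2, SOCS1 and IFNL1 were not called. Without each library 294 to 763 were higher and 654 to 1108 lower, the fewest without vector replicates 1 and 3; the cause was not tested. Over all 7 pathway lists, 37 of 102 tested genes (36.3%) were called higher, against 4.68% of all tested genes. Of these 37, 32 were in the interferon-stimulated list. The count was 30 to 38 without each library. Called lower were 7 (6.86%), against 7.04% of all tested genes. That count was 3 to 7 without each library, and 4 under the block and under limma on FPKM with either pseudocount. In the interferon-stimulated list 28 to 33 genes were called higher without each library. Signs turned, without single libraries, in uncalled genes: PRRT1 (-0.16 to 0.90), TMEM233 (-0.16 to 0.011), SYNDIG1L (-0.49 to 0.11), TMEM91 (-0.52 to 0.16), IFNE (-0.15 to 0.32), CTSD (-0.026 to 0.12), ITGAM (-0.82 to 0.17) and LUM (-0.70 to 0.041). Depth limits IFITM10, at 9 to 49 reads a library. In vector libraries it also limits BST2, at 13 to 18 reads, and IFITM1, at 25 or 26 reads.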

Other observations

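BISPR, a long non-coding RNA gene that starts beside BST2 and runs the other way, was looked at after its values were seen. It had 26, 9 and 2 reads in the TFCP2L1 libraries and 1, 5 and 1 in the vector libraries. The groups overlapped and the gene did not pass the filter on low counts, so it was not tested. In the TFCP2L1 libraries its reads were highest in replicate 1 and lowest in replicate 3, as were those of BST2. RefSeq's promoter windows of BISPR and BST2 overlap in part. The BISPR window held no match to the interferon response element core, but it ends just short of the BST2 matches. Those lie downstream of the BISPR start, so the absence depends on where the window was cut.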
